A study of Mus musculus with 23 samples.

Results

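Resistin-like molecules (RELM) and chitinase-like proteins were followed in the lungs of adult mice with allergic airway disease (AAD). The 7 genes were Retnla, Retnlb, Itln1, Chil1, Chil3, Chil4 and Chia1, and they were the rows of the deposited table with these symbols, 7 of 35322 listed genes. RNA-Seq libraries of 23 BALB/c offspring, 13 weeks of age and described as female, formed 4 groups, and the library labelled Sham replicate 1 went against that sex. Sham (n = 7) were offspring of dams given saline through the nose, and PM (n = 7) were offspring of dams given PM2.5 from a roadside before mating, in gestation and until weaning. Neither group was challenged with ovalbumin (OVA), and their control challenge was nebulised saline in the methods and PBS in the labels. The labels read no OVA challenge for Sham and no OVA for PM. Whether these controls were sensitised with OVA and alum is not clear from the methods. Sham-OVA (n = 5) and PM-OVA (n = 4) came from dams treated like those of Sham and PM, and were sensitised with OVA and alum and challenged with OVA aerosol. No group carried a transgene or a deleted gene, the offspring themselves were not given PM2.5, and several of them may share a dam, which the labels do not give. RNA came from a piece of frozen right lung, named lower lobe in the methods and RML in the labels, collected on the day after the last challenge. In the methods the airways of tested animals were washed for lavage fluid straight after lung function tests with methacholine, and whether each sequenced lung was washed is not given.

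RELM proteins are small, cysteine-rich, secreted proteins of the resistin family. Retnla (RELM-alpha, FIZZ1) is made by macrophages, airway and alveolar epithelium when IL-4 or IL-13 signal through the IL-4 receptor alpha chain and STAT6, and Retnlb (RELM-beta) is a product of goblet cells. Chitinases of the glycosyl hydrolase 18 family cut chitin, a polymer of mites, fungi and worms that mammals do not make. Chia1 encodes acidic mammalian chitinase, an active enzyme, whereas Chil1 (BRP-39), Chil3 (Ym1) and Chil4 (Ym2) keep the fold but have lost the catalytic activity and bind sugars as lectins. Itln1 encodes intelectin, a lectin for sugars of microbial surfaces. These proteins are known as products of type 2 immunity in the lung, and Chil3 is also known as an abundant product of resting alveolar macrophages.

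Values are RPM, the reads of a gene scaled to a common library total, which are not corrected for gene length. Reads on genes ranged from 13089691 to 17393579 in the 14 saline libraries and from 2298645 to 12355561 in the 9 OVA libraries, and 1 read was worth at most 0.0688 RPM in saline libraries and 0.311 RPM in Sham-OVA replicate 3, the shallowest. As defining genes of lung, 8 genes of alveolar type 2 cells had sums between 14107 and 43719 RPM in all libraries. In Sham-OVA replicate 3 and in PM-OVA replicate 4, 1 of the 8 genes was at 0 reads. Sham replicate 1 held 0.289 RPM of Xist, a gene transcribed in females, against 174 to 1618 RPM in the other 22 libraries. Eif2s3y, a gene of the Y chromosome, stood at 54.04 RPM in it and had 0 reads elsewhere. The library thus had the pattern of a male, and it was kept in its labelled group. Without it 7 of 7 members still rose in Sham-OVA against Sham, with log2 fold changes from 1.99 for Chil1 to 9.74 for Retnla, 4 in place of 6 passed the threshold of the study, and 0 of 7 passed in PM against Sham and in the interaction. Sham replicate 6 and PM replicates 1 and 5 stood apart from the other saline libraries in members of the family, and results that rest on them are given with and without them.

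By the GENCODE annotation of GRCm38 the family lies in 3 places. Retnlb (chr16:48816856-48818892) and Retnla (chr16:48842551-48844461) are neighbours on the plus strand. Chia1 (chr3:106113229-106132120, plus strand), Chil3 (chr3:106147554-106167564, minus strand) and Chil4 (chr3:106201490-106219507, minus strand) form a cluster on chromosome 3. Chil1 (chr1:134182176-134190181, plus strand) and Itln1 (chr1:171518122-171535294, minus strand) lie on chromosome 1. No other annotated gene overlapped any of the 7.
Chil3 and Chil4 are near copies, and their sequences are shown because they decide how far reads could be told apart. Over the 10 coding exons of equal length they differed at 53 of 1177 bases (95.5% identity). Their longest coding exon, chr3:106164090-106164291 in Chil3 and chr3:106214275-106214476 in Chil4, 5′ to 3′ on the minus strand of GRCm38, carries 10 differences, in capitals.
Chil3: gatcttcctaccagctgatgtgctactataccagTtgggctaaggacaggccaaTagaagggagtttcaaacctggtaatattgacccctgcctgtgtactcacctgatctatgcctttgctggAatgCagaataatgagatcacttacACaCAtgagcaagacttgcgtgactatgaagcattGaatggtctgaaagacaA
Chil4: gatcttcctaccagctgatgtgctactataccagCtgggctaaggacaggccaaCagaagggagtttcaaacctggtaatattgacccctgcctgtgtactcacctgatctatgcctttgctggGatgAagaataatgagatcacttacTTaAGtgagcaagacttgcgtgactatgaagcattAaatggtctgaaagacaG
The libraries were read as 100 bases from 1 end and aligned without splicing. Of the 592 windows of 100 bases that lie inside 1 exon of the main Chil3 transcript, 32 (5.41%) also occurred in a transcript of another gene, Chil4 or the pseudogene Gm6522. Of the 592 windows of Chil4, 17 (2.87%) also occurred in Chil3. The main transcripts of the other 5 genes shared no such window with another gene. How the authors' counting treated reads that match both Chil3 and Chil4 is not given in the sources used here, so the split between them is uncertain, and their sum was tested as an alternative. Itln1 has a near copy, Itln2, that the reference genome lacks, so that any reads of it would be counted on Itln1.

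The sequences before the starts of Chil3 and Chil4 are shown because the levels of these neighbours spread differently between OVA libraries, as described later. The 222 bases before the annotated gene of Chil4 (chr3:106219508-106219729) and the matching stretch of Chil3 (chr3:106167565-106167786), from RefSeq with build GRCm38.p6 and 5′ to 3′ on the minus strand, were identical at 201 of 223 aligned positions (90.1%). Capitals mark bases that differ or have no partner.
Chil3: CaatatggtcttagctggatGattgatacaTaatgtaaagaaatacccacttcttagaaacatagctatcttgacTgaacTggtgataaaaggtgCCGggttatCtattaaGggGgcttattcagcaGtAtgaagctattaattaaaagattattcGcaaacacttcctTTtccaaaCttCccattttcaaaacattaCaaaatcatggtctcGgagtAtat
Chil4: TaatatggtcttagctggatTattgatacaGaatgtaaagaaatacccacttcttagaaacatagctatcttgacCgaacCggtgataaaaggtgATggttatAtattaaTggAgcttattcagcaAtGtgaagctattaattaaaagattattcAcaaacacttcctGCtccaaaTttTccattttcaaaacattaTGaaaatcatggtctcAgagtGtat
The stretch before Retnla (chr16:48842359-48842550, plus strand, GRCm38.p6) is shown because it holds, in capitals, the letters TTC and GAA with 4 bases between them, the spacing that STAT6 is known to bind.
Retnla: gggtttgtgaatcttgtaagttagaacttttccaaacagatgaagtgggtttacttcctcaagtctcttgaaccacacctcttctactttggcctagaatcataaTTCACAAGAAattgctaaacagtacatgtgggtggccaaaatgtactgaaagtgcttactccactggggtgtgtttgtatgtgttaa
The match lies 145 to 136 bases before the RefSeq start. Among the 250 bases before the start of the 6 members with a RefSeq promoter, on both strands, Retnla alone held these letters, against 5.86% of 27025 promoters. The letters TATAAA stood in the same window of Retnla, Chil4 and Chia1, against 13.0% of promoters. A match is a description of letters and was not tested as a binding site.

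OVA challenge raised all 7 genes in both cohorts. Retnla, the RELM gene of macrophages and epithelium, went from a modest level to one of the highest of any gene. In Sham it ranged from 10.2 RPM to 94.1 RPM, with a median of 20.7 RPM. In Sham-OVA replicates 1 to 5 it stood at 18189, 16839, 11407, 23305 and 22641 RPM. The lowest challenged library was 121 times the highest saline library. In PM it ranged from 10.5 RPM to 133 RPM, with a median of 20.5 RPM, and in PM-OVA replicates 1 to 4 it stood at 8337, 21861, 17482 and 22248 RPM. The lowest library, PM-OVA replicate 1, was still 62.6 times the highest PM library. The mean rose from 27.9 ± 29.8 RPM (SD, n = 7) to 18476 ± 4832 RPM (n = 5) in Sham offspring, a log2 fold change of 9.74 (SE 0.43, limma, adjusted p = 9.2e-10). In PM offspring it rose from 46.5 ± 49.5 RPM (n = 7) to 17482 ± 6468.5 RPM (n = 4), a log2 fold change of 9.12 (SE 0.67, adjusted p = 1.6e-06). Among the 16795 genes tested this was the second highest log2 fold change in each cohort, at rank 2. By RPM Retnla ranked between 1 and 3 among the 35322 genes in each of the 9 OVA libraries, and between 1476 and 10009 in saline libraries. Without the 3 saline libraries that stood apart the rise on the log2 scale came to 10.10 in Sham offspring and to 9.91 in PM offspring.

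Retnlb, the RELM gene of goblet cells, was close to silent without challenge. It had 3 reads in Sham replicate 6, a level of 0.174 RPM, and 0 reads in the other 6 Sham and in all 7 PM libraries. In Sham-OVA replicates 1 to 5 it stood at 0.973, 8.80, 11.5, 5.82 and 13.4 RPM. In PM-OVA replicates 1 to 4 it stood at 2.15, 18.9, 20.6 and 15.6 RPM. All OVA libraries lay above all saline libraries, with Sham-OVA replicate 1 and PM-OVA replicate 1 far below their groups. Over pooled reads the ratio in Sham offspring was 299.8 (exact 95% interval 102 to 1459.7, for counting error only). For the 0 reads of PM, 3 reads over the group would be 0.0251 RPM, and the pooled PM-OVA reads (12.7 RPM) stood at 504 times that floor. This figure too leaves out the spread between animals, with PM-OVA replicate 1 at 2.15 RPM. The log2 fold change, held down by the pseudocount, was 3.70 (SE 0.43, limma, adjusted p = 3.9e-06) in Sham and 4.52 (SE 0.45, adjusted p = 1.6e-05) in PM offspring.

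Itln1, the intelectin gene of mucous cells, rose from a low level. It ranged from 0.231 RPM to 0.810 RPM in Sham (median 0.351 RPM) and from 0.102 RPM to 0.854 RPM in PM (median 0.293 RPM). Sham-OVA replicates 1 to 5 stood at 4.03, 12.8, 11.2, 7.25 and 9.28 RPM, and PM-OVA replicates 1 to 4 at 14.0, 33.0, 11.02 and 15.1 RPM. The groups did not overlap, and PM-OVA replicate 2 stood highest. The log2 fold change was 3.20 (SE 0.27, limma, adjusted p = 2.1e-07) in Sham and 4.33 (SE 0.32, adjusted p = 1.5e-06) in PM offspring.

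**Figure D1:**
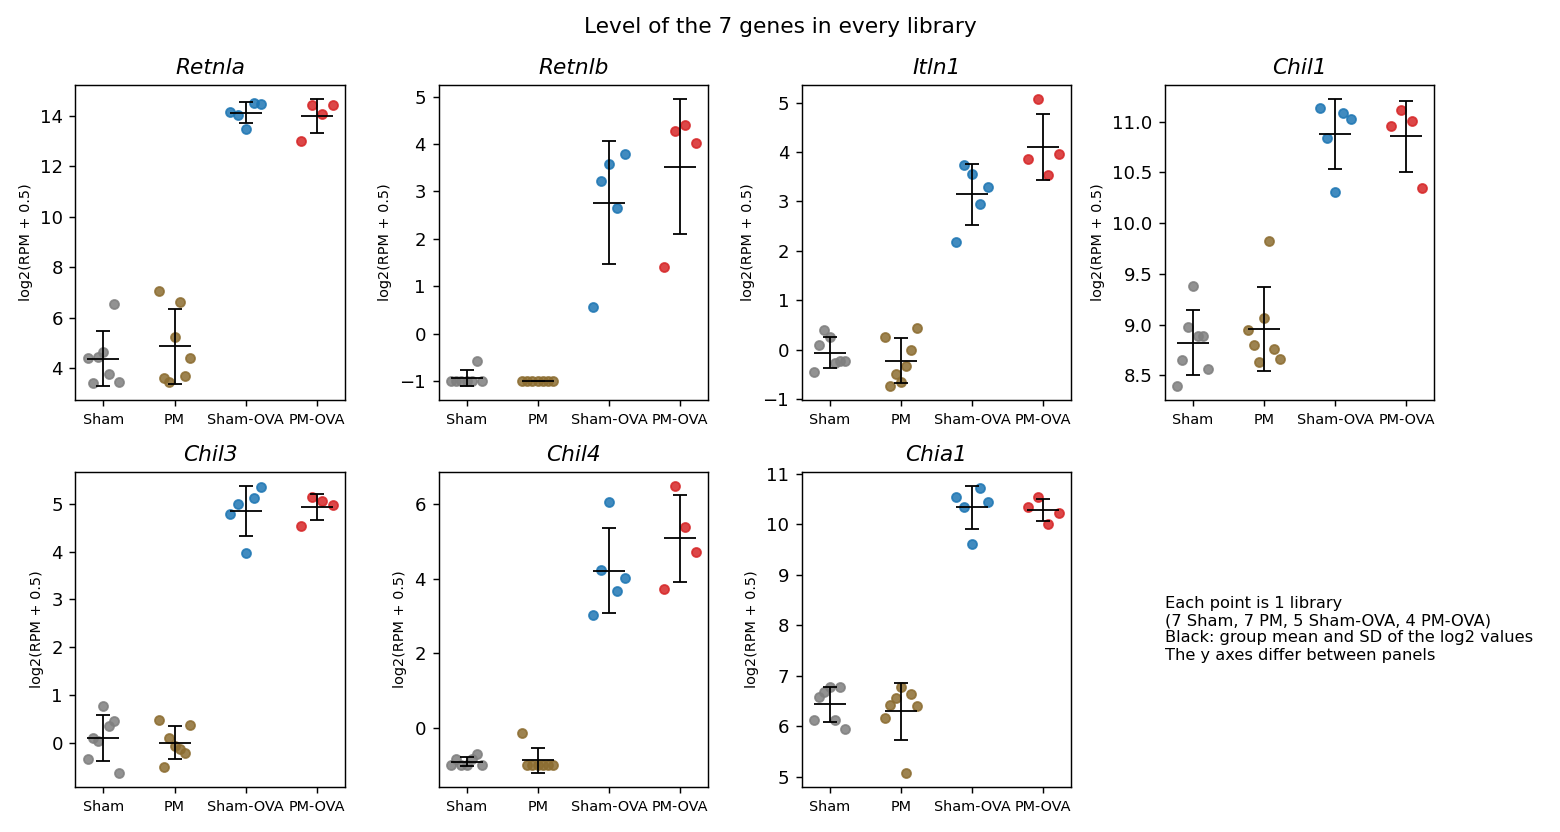
Level of each of the 7 genes as log2(RPM + 0.5), 1 point per library, with the group mean and SD of the log2 values in black and a separate y axis per gene. All 9 OVA libraries lie above all saline libraries of the same cohort for each gene, while the points of Retnla spread from 10.2 RPM to 133 RPM in saline lungs and those of Retnlb and Chil4 spread widely in OVA lungs.

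Chil1, the chitinase-like gene of macrophages and epithelium that corresponds to YKL-40 of humans, was the member most abundant in saline lungs. It ranged from 337 RPM to 665 RPM in Sham (median 474 RPM) and from 397 RPM to 904 RPM in PM (median 446 RPM). Sham-OVA replicates 1 to 5 stood at 2248, 1829, 1263, 2178 and 2089 RPM, and PM-OVA replicates 1 to 4 at 1983, 2220, 2056 and 1298 RPM. The challenged libraries lay above the saline ones by a narrower gap than in the other members, with the lowest PM-OVA library at 1.44 times the highest PM library. The log2 fold change was 2.06 (SE 0.20, limma, adjusted p = 7.3e-07) in Sham and 1.90 (SE 0.24, adjusted p = 6.5e-05) in PM offspring.

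Chil3, the Ym1 gene, was almost unread in saline lungs. Its 3 to 19 reads a library gave 0.151 RPM to 1.20 RPM in Sham (median 0.570 RPM) and 0.205 RPM to 0.894 RPM in PM (median 0.461 RPM). Of the markers listed for alveolar macrophages, the cells known for Chil3, Marco, a scavenger receptor, had a median of 2.79 RPM in Sham and 2.502 RPM in PM, and Ear1 had 1 read in Sham and 0 reads in PM. Other markers of that list were higher, with medians in Sham and PM of 64.9 and 60.5 RPM for Plet1 and 29.8 and 30.6 RPM for Atp6v0d2. Fabp4 had 9.2 and 9.5 RPM and Krt79 had 6.3 and 6.7 RPM. In Sham-OVA replicates 1 to 5 Chil3 stood at 27.1, 31.3, 15.2, 34.3 and 40.2 RPM, and in PM-OVA replicates 1 to 4 at 22.6, 34.7, 32.9 and 30.9 RPM. The groups were far apart, and the lowest challenged library was 12.6 times the highest saline library in Sham and 25.2 times in PM offspring. The log2 fold change was 4.74 (SE 0.28, limma, adjusted p = 1.2e-08) in Sham and 4.92 (SE 0.22, adjusted p = 2.2e-08) in PM offspring.

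Chil4, the Ym2 gene known from airway epithelium, had 4 reads in all over the 7 Sham libraries. In PM all of its 6 reads were in replicate 1, at 0.413 RPM. In Sham-OVA replicates 1 to 5 it stood at 7.57, 18.4, 66.5, 12.3 and 15.8 RPM, and in PM-OVA replicates 1 to 4 at 12.6, 89.0, 41.3 and 26.0 RPM. The OVA libraries of 1 group thus differed among themselves more than those of Chil3, and none overlapped with a saline library. Over pooled reads the ratio was 497 (exact 95% interval 194 to 1829.6) in Sham and 874 (401 to 2386) in PM offspring, for counting error only. The log2 fold change was 5.11 (SE 0.38, limma, adjusted p = 8.1e-08) in Sham and 5.95 (SE 0.41, adjusted p = 8.7e-07) in PM offspring.

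Chia1, the active chitinase, rose strongly from a moderate level. It ranged from 61.6 RPM to 110.01 RPM in Sham (median 95.2 RPM) and from 33.5 RPM to 109 RPM in PM (median 85.7 RPM). Sham-OVA replicates 1 to 5 stood at 1483, 1292, 785, 1694 and 1394 RPM, and PM-OVA replicates 1 to 4 at 1296, 1478, 1028 and 1199.8 RPM. The groups did not overlap. The mean was 15.1 times higher in Sham-OVA than in Sham and 15.2 times higher in PM-OVA than in PM. The log2 fold change was 3.90 (SE 0.21, limma, adjusted p = 5.0e-09) in Sham and 3.98 (SE 0.27, adjusted p = 8.2e-07) in PM offspring.

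In Sham offspring 7 of 7 members rose at an adjusted p under 0.05, where 20.6% of all tested genes rose and 47.5% fell. In PM offspring 7 of 7 rose, where 20.1% of genes rose and 45.2% fell. The OVA and saline libraries did not overlap in 7 of 7 members in each cohort, against 13.2% of tested genes that lay wholly higher after challenge in Sham and 13.3% in PM offspring. Retnlb and Chil4 stayed under 0.5 RPM in all saline libraries, so they entered the tests only through OVA libraries. For these genes the rise and the lack of overlap were largely set by the filter. The median log2 fold change of the members was 3.90 in Sham and 4.52 in PM offspring, beside -0.48 and -0.43 over all tested genes, and quantile and median-of-ratios scaling moved the median of all genes to between -0.17 and -0.02. Of all calls 30.2% were higher in Sham and 30.8% in PM offspring, against 43.4% to 49.6% and 44.7% to 50.1% with other scalings, edgeR and DESeq2, under each of which all 7 members rose. The threshold of the study was an adjusted p under 0.000001 with an absolute log2 fold change above 1. The study applied it to DESeq2, and here it was applied to limma. By it 6 members passed in Sham offspring, all but Retnlb, where 1.98% of genes passed as higher. Chil3, Chil4 and Chia1 passed in PM offspring, where 0.262% of genes passed as higher. That last count of 3 moved with the fit and with single libraries, and was 7 with DESeq2 and 6 without PM-OVA replicate 1. Over all genes, in either direction, 758 passed in Sham and 48 in PM offspring with limma. With DESeq2 on recovered reads 4861 and 2851 passed, so the counts of the cohorts depend on the test used.

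**Figure D2:**
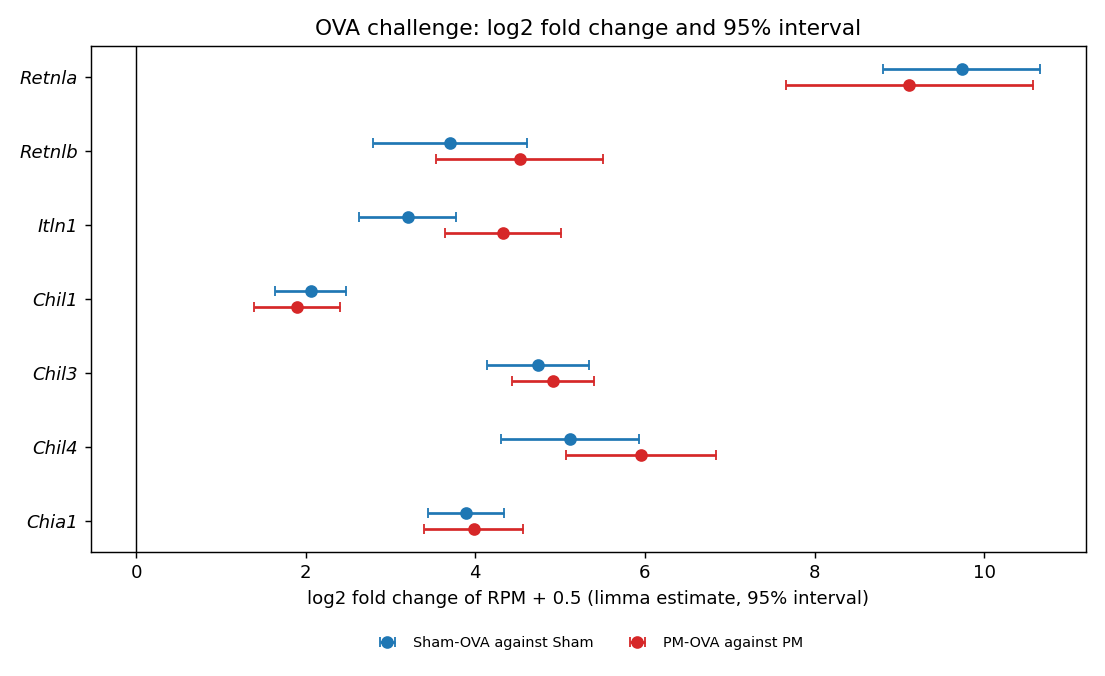
Log2 fold change of RPM + 0.5 after OVA challenge for each gene in Sham and in PM offspring (points) with 95% intervals from limma (bars). All 14 intervals lie above 0, Retnla is farthest to the right at 9.74 and 9.12, and Chil1 is nearest to 0 at 2.06 and 1.90.

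In lung tissue, more cells of a type and more RNA per cell cannot be told apart. Levels per kilobase of annotated exon adjust for length but not for reads lost over introns, so they compare genes only roughly. By them Retnla led after challenge with a median of 30365 RPM per kb in Sham-OVA and 32841 RPM per kb in PM-OVA. Chil1 (745 and 720.2 RPM per kb) and Chia1 (733 and 656 RPM per kb) came next and overlapped each other. Chil3 (19.2 and 19.5 RPM per kb), Retnlb (12.6 and 24.8 RPM per kb), Itln1 (8.13 and 12.8 RPM per kb) and Chil4 (5.6001 and 11.9 RPM per kb) followed, with ranges that overlapped between neighbours. The order of these 4 depends on the length used: per kilobase of the main transcript, which for Chil4 is 1539 bases against 2817 bases of all annotated exons, Chil4 had medians of 10.3 and 21.9 RPM per kb, above Itln1 in both groups and above Chil3 (20.3 and 20.7 RPM per kb) in PM-OVA. In saline lungs the order was Chil1, Chia1, Retnla, then Chil3 and Itln1, with Chil4 and Retnlb last at medians of 0 RPM per kb.

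The share of the 7 genes in the library shows how the family came to be dominated by 1 RELM gene. Together they took 0.0428% to 0.104% of the library in saline lungs, 1.36% to 2.72% in Sham-OVA and 1.167% to 2.57% in PM-OVA. Retnla made up 2.00% to 19.0% of the family in saline lungs and 71.5% to 89.6% after challenge. The ratio of Chia1 to Chil1 reads had a median of 0.205 in Sham and 0.204 in PM, and of 0.667 in Sham-OVA and 0.660 in PM-OVA. The lowest OVA library (0.49987) stood above the highest saline library (0.237). The ratio of Chil4 to Chil3 ranged from 0.279 to 4.37 in Sham-OVA and from 0.560 to 2.57 in PM-OVA, and the highest value was that of Sham-OVA replicate 3. The ratio of Retnlb to Retnla stayed at or below 0.00118 in OVA libraries, so that RELM reads were almost entirely those of Retnla.

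**Figure D3:**
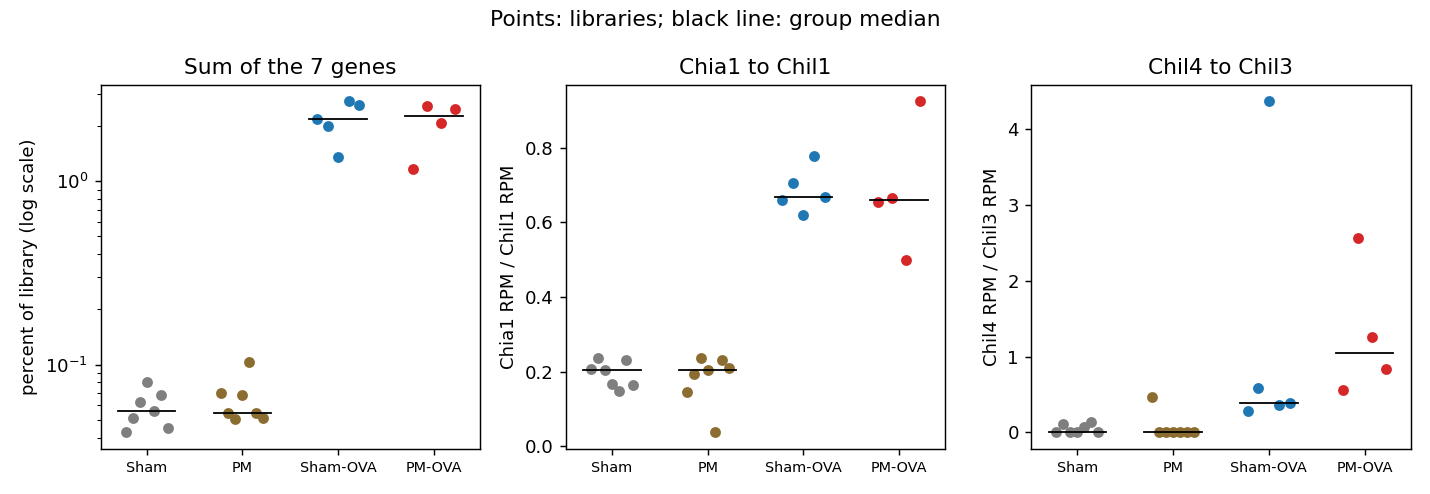
Summed share of the 7 genes in the library (percent, log scale), ratio of Chia1 to Chil1 RPM and ratio of Chil4 to Chil3 RPM, 1 point per library, with group medians as black lines. The share and the Chia1 to Chil1 ratio separate OVA from saline libraries, whereas the Chil4 to Chil3 ratio spreads from 0.279 to 4.37 within Sham-OVA.

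The genes that signal to and act beside the family were described by lists. Their counts stand beside the 20.6% of tested genes that rose and 47.5% that fell in Sham, and 20.1% and 45.2% in PM offspring. Of the 5 tested type 2 ligands, 3 rose and 1 fell in Sham, and 4 rose and 1 fell in PM offspring. Il4, Il5 and Il13 stayed under 0.5 RPM in all saline libraries and entered the tests only through OVA libraries, so their rise was largely set by the filter. Il9 and Il25, with at most 1 read in a group, were not tested. Il13, a cytokine that induces Retnla and Chil4, changed by 1.73 in Sham and 1.14 in PM offspring on the log2 scale, Il5, the eosinophil growth factor, by 1.26 and 0.74, Il4 by 0.99 and 0.69, and the epithelial alarmin Tslp by -1.36 and -0.61. All 8 changes passed at an adjusted p under 0.05 (limma), but that of Tslp did not with quantile scaling (-0.89 and -0.15), and levels were low. Il13 was at 0 reads in all 7 Sham libraries, and in Sham-OVA it ranged from 0 to 4.24 RPM with a median of 2.15 RPM.
Of the 8 type 2 receptors, 5 rose and 1 fell in Sham, and 4 rose and 1 fell in PM offspring. Il5ra, a receptor of eosinophils, rose by 3.18 and 2.47, and Il1rl1, the IL-33 receptor, by 1.40 and 1.04. Il13ra1 went by -1.06 and -1.07, and Crlf2, a subunit of the TSLP receptor, by 0.73 and 0.55, all past the threshold. Il4ra, the receptor chain that IL-4 and IL-13 share, had -0.48 (adjusted p = 0.055) and -0.42 (adjusted p = 0.12) and did not pass (limma). Of 17 signalling genes and factors, 9 rose and 6 fell in each cohort. Stat6 itself, at a median of 138 RPM in Sham and 121 RPM in Sham-OVA, had -0.16 (adjusted p = 0.21) and -0.07 (adjusted p = 0.55), with the opposite sign under quantile scaling (0.08 and 0.20) and past the threshold as higher with edgeR (0.31 and 0.32). Irf4 rose by 4.32 and 3.75, Socs1, an inhibitor of JAK signalling, by 2.96 and 2.51 and Foxa3, a factor of goblet cells, by 2.51 and 3.04, whereas Klf4 changed by -5.80 and -4.81.

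Other genes known to respond to IL-4 and IL-13, and relatives of the family, were counted beside the same shares of all tested genes. These were 20.6% higher and 47.5% lower in Sham, and 20.1% and 45.2% in PM offspring. Of 12 macrophage genes 9 rose and 1 fell in Sham and 8 rose and 1 fell in PM offspring, with median log2 fold changes of 2.00 and 1.82. The chemokine gene Ccl24 rose by 5.73 and 4.70, Arg1 by 4.85 and 3.89, Alox15 by 4.09 and 2.80 and Pdcd1lg2 by 3.97 and 3.25. Of 10 goblet cell genes 10 rose in Sham and 9 in PM offspring, with medians of 3.91 and 4.80. Tff1, 1 of the 10, had 0 reads in all saline libraries and entered the tests only through OVA libraries. Its rise was thus largely set by the filter. Clca1 rose by 9.86 and 10.54, Bpifb1 by 6.98 and 6.70, the anion exchanger gene Slc26a4 by 6.35 and 5.68 and the mucin gene Muc5ac by 5.42 and 5.88. Among 6 tested relatives of the family 3 rose and 2 fell in each cohort. Chil5, a tested relative, stayed under 0.5 RPM in all saline libraries and likewise entered only through OVA libraries. Retnlg, the RELM gene of neutrophils, rose by 4.23 and 3.38 and Chid1 by 1.78 and 1.57, while Ctbs, an enzyme of lysosomes, changed by -2.37 and -2.09 and Ovgp1 by -0.94 and -0.996, a change that did not pass with quantile scaling (-0.40 and -0.58).

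Markers of cells that could carry the family were counted beside the 20.6% of tested genes that rose and 47.5% that fell in Sham and the 20.1% and 45.2% in PM offspring, and their part in the levels was not tested. Of 8 interstitial macrophage markers 7 rose in each cohort, and their sum went from 127 to 241 RPM in Sham to 1551 to 2408 RPM in Sham-OVA and from 189 to 355 RPM in PM to 1375 to 2041 RPM in PM-OVA. Of 5 tested eosinophil markers 4 rose and 1 fell in each cohort, with sums of 3.66 to 15.8 RPM in saline and 19.6 to 48.1 RPM in OVA libraries. Of 7 tested alveolar macrophage markers 2 rose and 3 fell in each cohort. Car4, which endothelial cells also express, made up 35.6% to 90.6% of the sum of the list in the 23 libraries, and without it the other 7 genes summed to 58.4 to 158 RPM in saline and 60.6 to 148 RPM in OVA libraries. Marco was at 0 in 1 library of each OVA group. Of 8 markers of alveolar type 2 cells 2 rose and 3 fell in each cohort, and of 8 neutrophil markers 2 rose in Sham and 3 in PM offspring while 2 fell in each. Of 7 club cell markers 1 rose and 4 fell in Sham, and 2 rose and 3 fell in PM offspring. Of 8 multiciliated cell markers 2 fell in Sham and 4 rose in PM offspring. With edgeR the counts were 5 higher and 3 lower in Sham for alveolar type 2 cells, 2 and 3 for club cells and 2 and 1 for multiciliated cells, and in PM offspring 4 and 3, 2 and 0 and 6 and 0, so the direction of these lists depends on the scaling. Of 6 smooth and cardiac muscle markers 2 rose and 2 fell in each cohort.

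The 7 genes fell apart in how much they varied between OVA libraries. Over the 9 OVA libraries the SD of log2(RPM + 0.5) was 1.33 for Retnlb, 1.1698 for Chil4 and 0.78 for Itln1. It was 0.51 for Retnla, 0.41 for Chil3, 0.33 for Chia1 and 0.32 for Chil1. Lists of airway cells shared the extremes of the variable genes in some libraries but not in others. Sham-OVA replicate 1 was the lowest of the 9 libraries for Retnlb, Chil4 and Itln1, at -2.54, -1.58 and -1.39 from the mean of the 9 on the log2 scale. It was also lowest for the means of the goblet, club and multiciliated lists, at -1.24, -1.45 and -1.50, while Retnla (0.08), Chil3 (-0.09), Chil1 (0.27) and Chia1 (0.23) were near or above the mean. PM-OVA replicate 2 was the highest for Chil4 and Itln1, at 1.89 and 1.498, and for the goblet, club and multiciliated lists, at 1.14, 1.40 and 1.19. Sham-OVA replicate 5 was above the mean in these lists (0.22, 0.78 and 0.39) and in Retnlb (0.69), but below it in Chil4 (-0.57) and Itln1 (-0.28). PM-OVA replicate 4 was high in Retnlb (0.91), with the lists at -0.17, -0.06 and 0.13. PM-OVA replicate 1 was low in Retnlb (-1.69), Retnla (-1.04) and Chil4 (-0.88) but not in Itln1 (0.29). Sham-OVA replicate 3, the shallowest library, was low in Chil3 (-0.91), Chia1 (-0.69), Retnla (-0.59) and Chil1 (-0.56) and in the alveolar type 2 list (-1.002), but high in Chil4 (1.47). The part that the amount of airway in each piece of lung played was not tested.

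**Figure D4:**
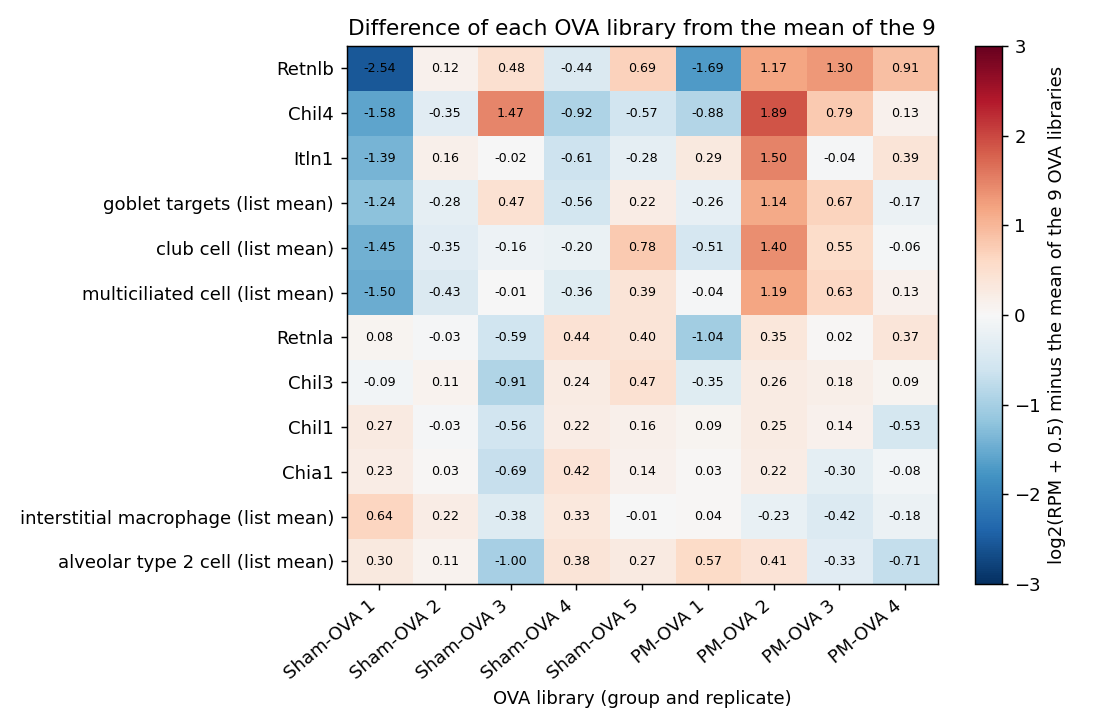
Difference of log2(RPM + 0.5) of each OVA library from the mean of the 9 OVA libraries, for the 7 genes and for the means of 5 marker lists; the colour scale and the printed values are in log2 units. Retnlb, Chil4 and Itln1 share their low value in Sham-OVA replicate 1 with the goblet, club and multiciliated lists, whereas Retnla, Chil3, Chil1 and Chia1 stay between -0.09 and 0.27 there.

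The genes most like each member in their deviation from the group means over 23 libraries, among 11715 genes with a mean of at least 5 RPM, are given as a description (Pearson r, with libraries and their depth in common). Retnlb was most like Cdhr3 (r = 0.90), Lhb (0.88) and Drc1 (0.88), and Chil4 most like Drc7 (0.82), Ffar4 (0.81) and Muc5ac (0.80). Retnlb was at 0 reads in all saline libraries but Sham replicate 6, and Chil4 had at most 6 reads in any of them. The r values of these genes thus rest mainly on the OVA libraries. Cdhr3, Drc1 and Drc7 are genes of ciliated cells or their axoneme. Chil1 was most like the surfactant protein gene Sftpd (0.88), Zfp385b (0.87) and Lbp (0.86), and Retnla like the macrophage elastase gene Mmp12 (0.81), Slc26a4 (0.71) and S100a14 (0.70). Chil3 was most like Gabarap (0.85), Scgb1c1 (0.84) and Mrps14 (0.83), Chia1 like Ly6a (0.83), Arl2bp (0.83) and Stmn2 (0.82), and Itln1 like Tmem158 (0.75), 2310034G01Rik (0.74) and Neurl1a (0.72).

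Maternal PM2.5 exposure was compared without and with challenge. In PM against Sham 0 of 7 members passed at an adjusted p under 0.05, and 0% of all tested genes passed. The log2 difference was 0.48 for Retnla (95% interval -0.79 to 1.76), 0.13 for Chil1 (-0.25 to 0.52), -0.10 for Chil3 (-0.54 to 0.34), -0.14 for Chia1 (-0.61 to 0.33) and -0.16 for Itln1 (-0.58 to 0.26), with adjusted p between 0.92 and 0.98 over the 7 members (limma). Retnlb (-0.06) and Chil4 (0.03) had too few reads in saline lungs to compare. The spread of Retnla came from single libraries, with Sham replicate 6 at 94.1 RPM and PM replicates 1 and 5 at 133 and 99.4 RPM, while the other 11 saline libraries stood between 10.2 and 37.8 RPM. Without these 3 libraries the difference in Retnla was 0.06. PM replicate 1 also held the highest sum of goblet cell genes in saline lungs, 283 RPM against 27.2 to 66.1 RPM in Sham, and PM replicate 5 had the highest Chil1 (904 RPM) and the lowest Chia1 (33.5 RPM). Without the 3 libraries the difference in Chia1 was 0.18 and in Chil1 -0.03.

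In PM-OVA against Sham-OVA 0 of 7 members passed, and 0% of tested genes passed. Retnla (-0.13, 95% interval -1.24 to 0.97), Chil1 (-0.02, -0.61 to 0.56), Chil3 (0.08, -0.55 to 0.72) and Chia1 (-0.06, -0.62 to 0.51) had differences near 0. Their intervals leave room for changes of up to 1.24 on the log2 scale in Retnla and 0.72 or less in the others. The genes that varied most had higher values in PM-OVA, by 0.76 for Retnlb (-1.02 to 2.54), 0.87 for Chil4 (-0.62 to 2.37) and 0.96 for Itln1 (0.05 to 1.88), each with adjusted p = 1 (limma). For Retnlb 3 of 4 PM-OVA libraries lay above all 5 Sham-OVA libraries, for Itln1 3 of 4 and for Chil4 1 of 4. Multiciliated sums were 520 to 1165 RPM in PM-OVA and 322 to 778 RPM in Sham-OVA, and club cell sums 7144 to 37382 RPM and 4424 to 29745 RPM. These ranges overlapped, 0 of 8 multiciliated and 0 of 7 club cell genes passed, and their part in the values of the members was not tested.
The interaction asks whether the response to OVA differed between offspring of both kinds of dams. It passed for 0 of 7 members and for 0% of tested genes. The estimates were 1.12 for Itln1 (95% interval 0.26 to 1.99, adjusted p = 0.69), 0.84 for Chil4 (-0.36 to 2.04), 0.82 for Retnlb (-0.54 to 2.18) and -0.62 for Retnla (-2.35 to 1.11). Chil3 (0.18), Chia1 (0.09) and Chil1 (-0.16) were nearer to 0, and the adjusted p was 1.0 for each of the 6 genes other than Itln1 (limma). Of the 16795 genes tested an unadjusted p under 0.05 (limma) was reached by 731 in PM against Sham, 313 in PM-OVA against Sham-OVA and 854 in the interaction. Chance alone gives a share of about 0.05 of tested genes on average. Genes that vary together can move such counts either way, so nothing is read from them about a maternal effect. On the recovered reads edgeR called 0, 0 and 0 and DESeq2 0, 1 and 2 genes.

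**Figure D5:**
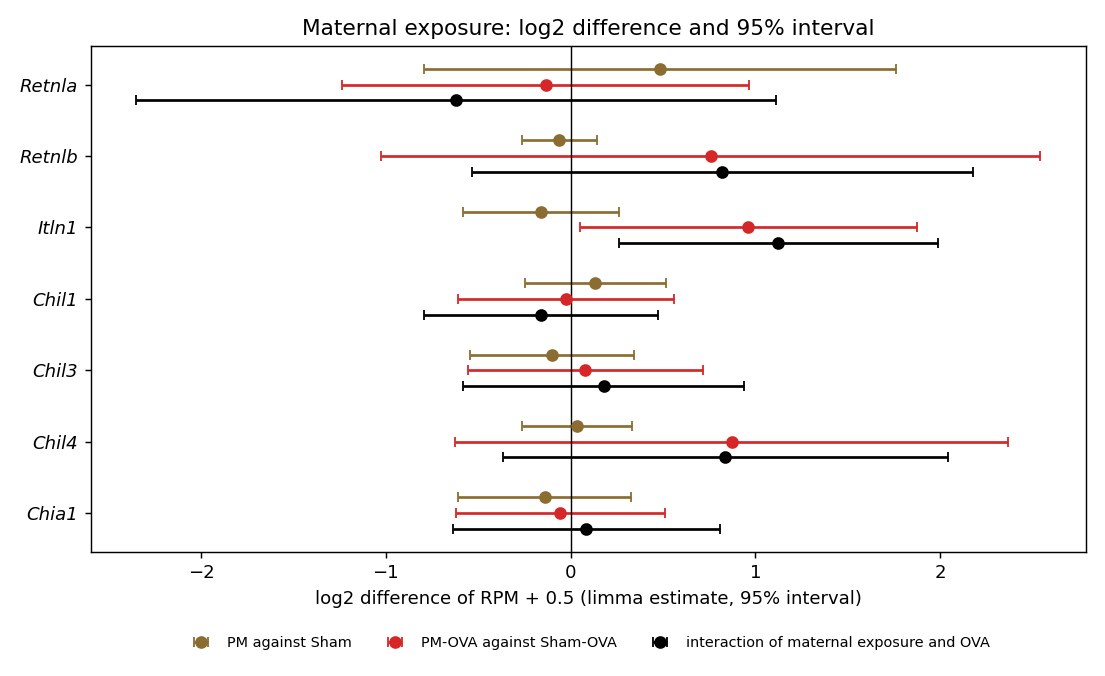
Log2 difference of RPM + 0.5 (points) with 95% intervals from limma (bars) for PM against Sham, PM-OVA against Sham-OVA and their difference, the interaction. All intervals include 0 except those of Itln1 in PM-OVA against Sham-OVA (0.05 to 1.88) and in the interaction (0.26 to 1.99), which did not pass after adjustment over 16795 genes.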

How the data were processed

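RNA-Seq of lung was analysed in 23 libraries grouped by the maternal exposure and challenge in their labels. In the authors' methods Trimmomatic trimmed the reads, Bowtie2 placed them on GRCm38 without splicing and SeqMonk quantified genes, and the submitters' processing notes name mm10 and bcl2fastq. The table deposited by the authors is named after RPKM, but dividing each value by 1 step per library, the same for long and short genes, gave a whole number of reads for 100% of values (within 0.05 reads), so they were used as RPM per the deposited values, and reads were recovered. Bowtie2 does not split reads over introns, which lowers the count of genes with short exons, and for the 7 genes 39.3% to 56.3% of 100-base windows of the main transcript lie inside 1 exon.

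The 16795 genes that reached 0.5 RPM in 4 or more libraries entered the tests, on log2(RPM + 0.5), a scale that understates changes of low genes, with limma 3.58.1 in R 4.3.3 (variance trend, Benjamini-Hochberg over all genes tested), in 2-group fits and, for the interaction, all 4 groups. A gene under 0.5 RPM in all saline libraries entered only through OVA libraries, so its rise was largely set by that filter. Each OVA group was compared with the saline group of the same maternal exposure, PM with Sham and PM-OVA with Sham-OVA. Comparisons share groups and are not independent. Replicates are libraries of separate animals, whose litters are not given, so p-values measure the spread between these libraries. The members and lists were chosen with earlier results of these data known. Named genes were the 7 members, the 3 genes most like each, and from each list the first 4 by absolute log2 fold change in Sham among those passing in both cohorts, plus Stat6, Il4ra, Il4 and Il13. Cell type lists were given by counts and sums.

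Alternatives were pseudocounts of 0.1 and 1, other filters, quantile and median-of-ratios scaling, robust estimation, replicate blocks, leaving out each library, edgeR 4.0.16 and DESeq2 1.42.0 on recovered reads, all groups in 1 fit and Chil3 and Chil4 summed. Leaving out 3 saline libraries together was chosen after seeing the data. On recovered reads edgeR called 11253 genes after OVA in the Sham cohort and 10215 in the PM cohort, beside 11431 and 10968 with limma. Tests of the lists under other scalings, levels per kilobase of the main transcript and the macrophage sum without Car4 were also added after seeing the data. The fits were tested on simulated data. Annotation came from GENCODE and promoters from RefSeq, with 6 of 7 members matched. Figures were drawn with matplotlib in Python.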

Additional observations from a re-analysis of the deposited data

Results flagged for a closer look

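Values were compared within groups of 4 to 7 libraries on the log2(RPM + 0.5) scale, and a library was singled out when its gap to the nearest other library exceeded Dixon's 95% critical share of the group's range. Of 27 gene and group combinations 6 were singled out. In 2 of them, Retnlb in Sham and Chil4 in PM, all other libraries were at 0 reads, so any library with reads is singled out by construction. For groups with spread in all libraries chance flags about 1 in 20. Sham replicate 6 lay far above its group in Retnla, at 94.1 RPM, and was the Sham library with Retnlb reads, at 0.174 RPM. PM-OVA replicate 1 lay far below its group in Retnlb, at 2.15 RPM. PM replicate 5 was far above its group in Chil1, at 904 RPM, and far below it in Chia1, at 33.5 RPM, so that its ratio of Chia1 to Chil1, 0.0371, was the lowest of the 23 libraries. PM replicate 1 had the 0.413 RPM of Chil4 in PM lungs.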

How the results depend on the processing

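All 7 members rose at an adjusted p under 0.05 in both cohorts under each alternative run. The count by the threshold of the study in PM offspring, 3, became 1 with a pseudocount of 0.1 and without a filter, and 7 with DESeq2 and with all 4 groups in 1 fit. Leaving out 1 library gave 1 to 6 in PM offspring (6 without PM-OVA replicate 1, 2 without PM replicate 5 and 1 without each of the other 9) and 4 to 6 in Sham offspring. Libraries with the same replicate number in their titles were not treated as pairs. Such pairs correlated above 0.1 in 1 of 5 of Sham and Sham-OVA, 0 of 4 of PM and PM-OVA, 1 of 7 of Sham and PM and 3 of 4 of Sham-OVA and PM-OVA. The library names carry other numbers in the OVA groups. Sham-OVA replicate 3 also had r = 0.54 with PM-OVA replicate 4 and -0.63 with PM-OVA replicate 1, so the check cannot decide on pairing. A replicate block gave counts of 1 in Sham and 0 in PM offspring. With the replicate block the maternal difference of Chil1 after challenge was 0.014 and its interaction 0.0024.

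The differences near 0 that changed sign did not pass in any alternative. In PM against Sham, Chil4 was -0.014 with a pseudocount of 0.1 and -0.084 when summed with Chil3, and without the 3 saline libraries high in Retnla it was -0.054, Chil1 -0.025 and Chia1 0.18. In PM-OVA against Sham-OVA, Retnla was 0.0047 with edgeR, 3.6e-05 with edgeR and no filter and 0.0061 with DESeq2. In the interaction, Chil4 was -0.23 with DESeq2, and without the 3 saline libraries Chil1 was 0.0015 and Chia1 -0.24. Leaving out 1 library gave, in PM against Sham, -0.0099 to 0.23 for Chil1, -0.22 to 0.011 for Chil3, -0.089 to 0.070 for Chil4 and -0.22 to 0.061 for Chia1. In PM-OVA against Sham-OVA it gave -0.30 to 0.19 for Retnla, -0.17 to 0.15 for Chil1, -0.14 to 0.21 for Chil3 and -0.23 to 0.043 for Chia1, and in the interaction -0.30 to 0.012 for Chil1, -0.037 to 0.31 for Chil3 and -0.12 to 0.18 for Chia1. The causes were not tested. Depth limits Retnlb and Chil4 in saline lungs, where 3 reads over a group are worth 0.0247 RPM in Sham and 0.0251 RPM in PM.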
